A study of Mus musculus with 41 samples.

Results

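The cerebellum and the cortex of floxed mice were compared at the level of polyadenylated RNA, to describe the regional identity of brain tissue that carries Yy1 alleles flanked by recombination sites, with no Cre named in its label. The comparison holds 12 of the 41 libraries of the series, 6 of floxed cerebellum and 6 of floxed cortex, chosen by genotype, tissue and the numbers 1 to 6 in their titles. Libraries of the 2 tissues with the same number were taken as 1 animal. All mice were C57BL/6J, aged 12 weeks, with numbers 1 to 4 labelled male and 5 and 6 labelled female. The gene Yy1 encodes a zinc finger transcription factor, and the wider study removed it from astrocytes. For a repeat in other animals, 5 cerebella and 5 cortices of mice labelled astrocytic Yy1-cKO (numbers 2 to 6, the same strain and age) were used. Those mice carry in addition a Cre driven by a promoter of Gfap, an astrocyte intermediate filament gene, and they serve here only to see whether regional folds recur. A floxed library numbered 7 with a cortex code in its title and another tissue in its label was left out.

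The cerebellum is a hindbrain structure built of a very dense layer of small glutamatergic granule neurons, a single sheet of large GABAergic Purkinje cells, a few classes of inhibitory interneurons and Bergmann glia, the radial astrocytes that line the Purkinje cells. The cortex is a forebrain structure of layered glutamatergic projection neurons and interneurons that migrate in from the ventral forebrain. The 2 regions arise from parts of the neural tube patterned by different homeobox and zinc finger genes, and many of these genes stay on in the adult. In bulk RNA, fewer cells of a type and less RNA per cell cannot be told apart.

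Defining markers matched both tissue labels in every library. Pcp2 and Gabra6, markers of Purkinje cells and granule neurons, lay at 10388 to 14325 and 8170.2 to 11965 normalised reads in cerebellum, against 6.4 to 31.2 and 2.2 to 18.8 in cortex. Tbr1, a marker of deep-layer cortical neurons, lay at 15.2 to 38.8 in cerebellum and at 3078 to 4161 in cortex. The dissected cortex also held high levels of striatal genes, given below. Values are normalised reads, with library totals of 22.1 to 23.8 M in cerebellum and 27.9 to 28.7 M in cortex. The estimated reads behind them were 18.6 to 69.5 M (median 27.6 M) in cerebellum and 23.1 to 49.8 M (median 29.1 M) in cortex, with a mean log2 difference of -0.05 (two-sided exact sign-flip permutation p = 0.906, smallest possible 0.031). All 12 libraries, also those labelled female, had Xist at 22.1 or less and the Y-linked gene Ddx3y at 851 or more. Yy1 itself was at 585 to 1348 (median 1091) in cerebellum and 1135 to 1428 (median 1305) in cortex (log2 fold -0.36, SE 0.11, adjusted p = 0.0163; -0.23 without animal 6). That call was lost when values were scaled to equal totals (log2 fold -0.07, adjusted p = 0.539).

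One library stood apart. The library labelled floxed cerebellum 6 had the lowest Yy1 value of the 12 and the most estimated reads. Its Gfap value was 25729 normalised reads, against 4241 to 4786 in the other cerebella, and its Dao value, from a Bergmann glia enzyme gene, was 178, against 2226 to 2879.8 in them. Microglial, interferon-response and matrix genes were high in it. The cortex library of the same number was low in several activity-induced genes. Values without animal 6 are given beside many of the results that it changed or moved. For others in which number 6 stood apart, only the fold with animal 6 is given beside the result. Among these are Gria4, Grin2c, Arc, Egr1, Col1a1 and Ifi27.

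Of 15563 genes tested, 10485 were called different between cerebellum and cortex, which is 67.4% of them (limma, Benjamini-Hochberg adjusted p under 0.05). Of these, 3834 were higher in cerebellum (24.6%) and 6651 were lower (42.7%). Among called genes, 1086 were at least 2-fold higher (6.98%) and 2607 at least 2-fold lower (16.8%). With 67.4% of genes called, gene lists are described by this second rule, and 6.98% and 16.8% are the shares that any list is to be read against. The lists were written with earlier results of these data known, so their counts are descriptions and not independent tests. Folds of 16 or more were found for 105 higher and 331 lower genes. The 6 cerebella and 6 cortices did not overlap for 6567 genes (42.2%), and 9158 of the 10485 called genes differed in the same direction in all 6 animals. The median log2 fold over all genes tested was -0.13. Where a gene rose, fell or differed by a stated number, the number is its log2 fold.

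The balance of small differences depended on scaling. With values scaled to equal library totals the median fold moved by 0.28 to 0.15, and 6865 genes were higher and 4356 lower. With median-of-ratios factors it moved by 0.15 to 0.01, and 5367 were higher and 5279 lower. At a fold of 2 or more the counts were 1582 higher and 2017 lower with equal totals, and 1305 higher and 2280 lower with median-of-ratios factors. All of the 1086 higher genes remained among these under equal totals, as did 2017 of the 2607 lower ones.

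Granule neuron genes were higher in cerebellum. All 24 listed markers were called higher, 22 of them by a fold of 2 or more, with a median log2 fold of 3.66. Gabra6 (chr11:42306437-42321072, minus strand, GRCm38), the GABA-A receptor subunit that marks mature granule neurons, had 8170.2 to 11965 (median 9644) normalised reads in cerebellum and 2.2 to 18.8 (median 12.4) in cortex (log2 fold 9.72, SE 0.39, adjusted p = 5.60e-07). Every cerebellum was far above every cortex. The cortex value stands for few reads, so the size of this fold, as of others with values near 0 in 1 tissue, depends on the pseudocount of 1. Fat2, a giant protocadherin gene of granule neurons, had 17776 to 22782 (median 20549) in cerebellum and 13.4 to 50.9 (median 31.1) in cortex (log2 fold 9.33, SE 0.22). Neurod1, a bHLH factor of granule neuron differentiation, had 6623 to 9404 (median 8842) against 161 to 268 (median 207) (log2 fold 5.29, SE 0.10). No library of one tissue reached the range of the other for either gene.

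The zinc finger genes of the Zic family, which mark the dorsal neural tube and the granule lineage, were called higher in the 3 members named here, with log2 folds of 3.79 (SE 0.13) for Zic1, 3.71 (SE 0.08) for Zic2 and 2.56 (SE 0.13) for Zic4. Zic1 had 12484 to 19560.1 (median 15906) normalised reads in cerebellum and 778 to 1532 (median 1259.5) in cortex, without overlap. Pax6, a paired-box factor of the granule lineage, rose by a log2 fold of 3.03 (SE 0.07), and Barhl1, a homeobox factor of the same lineage, by 6.91 (SE 0.30). Reln, a secreted glycoprotein that guides neuronal layering, had 5781 to 7993 (median 7084) in cerebellum and 1828 to 2803 (median 2469) in cortex (log2 fold 1.55, SE 0.07). Calb2 (calretinin), a calcium buffer, was higher by 3.74 (SE 0.22) and Cdh15, a cadherin gene, by 4.69 (SE 0.08). The smallest fold of the list was that of Rbfox3 (NeuN), a splicing factor of most neurons, with 12797 to 18486 (median 15479) in cerebellum and 11423 to 15319 (median 12776) in cortex (log2 fold 0.24, SE 0.06, adjusted p = 0.00663).

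Purkinje cell genes were higher too, with 20 of 22 at a fold of 2 or more and a median log2 fold of 2.86. Pcp2 (chr8:3623371-3625545, minus strand), a regulator of G protein signalling found in Purkinje and retinal bipolar cells, had the largest rise among the named genes, with 10388 to 14325 (median 12898) normalised reads in cerebellum and 6.4 to 31.2 (median 11.1) in cortex (log2 fold 9.75, SE 0.25, adjusted p = 1.38e-08). Car8, a carbonic anhydrase-related protein that binds the IP3 receptor, had 22488 to 48687 (median 37428) in cerebellum and 259 to 443 (median 348) in cortex (log2 fold 6.68, SE 0.12). Itpr1, that receptor's gene, was abundant in both tissues and had 38076 to 87687 (median 63787) in cerebellum and 13079.6 to 22087 (median 18668) in cortex (log2 fold 1.82, SE 0.13). The lowest cerebellum lay above the highest cortex for each of these genes, by a far smaller margin for Itpr1.

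Ppp1r17, a phosphatase inhibitor gene of Purkinje cells, had 4742 to 6785 (median 5937) in cerebellum and 11.2 to 38.5 (median 26.6) in cortex (log2 fold 8.02, SE 0.27). Slc1a6, the Purkinje cell glutamate transporter EAAT4, had 5814 to 7324 (median 6524) against 238 to 309.7 (median 289) (log2 fold 4.52, SE 0.07). Calb1 (calbindin), also made by cortical neurons, differed less, by 2.72 (SE 0.12). The LIM homeobox gene Lhx5 was higher by 4.6 (SE 0.33) and Aldoc (zebrin II), which marks stripes of Purkinje cells and also astrocytes, by 1.15 (SE 0.12). The adjusted p was at most 1.09e-05 for these 5 genes. The smallest rise of the list was in Pcp4, a calmodulin-binding peptide gene also active in cortical layers, with a log2 fold of 0.67 (SE 0.07). Foxp2, a forkhead gene of Purkinje cells and of deep cortical and striatal neurons, was the single member lower in cerebellum, and its log2 fold of -1.52 is the low end of the list's range (-1.52 to 9.75); it was named after its values were seen.

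Rora, the orphan nuclear receptor that Purkinje cells need to mature, had 4741 to 7404 (median 5901) normalised reads in cerebellum and 1093 to 1857 (median 1259.7) in cortex (log2 fold 2.12, SE 0.15). Receptors of this family bind sites with the core AGGTCA, and bHLH factors of the NeuroD family bind E-boxes such as CAGATG, so both were searched on both strands in the 250 bases before RefSeq starts (GRCm38.p6, the start farthest upstream of each gene). A window was found for 131 of the 183 named genes tested. AGGTCA was present in 13.8% of all 27025 windows, in 10.4% of those of genes tested, in 13.1% of those of genes 2-fold or more higher and in 9.96% of those of genes 2-fold or more lower. CAGATG was present in 14.5%, 10.5%, 13.2% and 11.9% of the same sets. Among the 12 largest rises, 7 had a window and 3 of these held AGGTCA and 3 held CAGATG. Among the 12 largest falls, 8 had a window, 1 held AGGTCA and 0 held CAGATG. A match is a description of these letters only, and the 2 motifs do not overlap in the windows shown. The windows of 3 genes higher in cerebellum (Pcp2, Arhgef33 and Grin2c) and of 1 lower gene (Kcnf1) are printed as examples that hold AGGTCA. Windows of other named genes held it too. Among them were the higher genes Barhl1 and Fat2, the lower genes Slc6a11, Glul, P2ry12 and Dlx1, and Gfap and Aldh1l1, which were not called. The printed examples therefore do not show how the motif is shared between higher and lower genes. Capitals mark AGGTCA or its complement TGACCT and, in Pcp2, CAGATG. The windows lie at chr8:3625548-3625797, minus strand for Pcp2, chr17:80307157-80307406, plus strand for Arhgef33, chr11:115267244-115267493, minus strand for Grin2c and chr12:17176889-17177138, minus strand for Kcnf1, and all run 5′ to 3′ towards the start.
Pcp2: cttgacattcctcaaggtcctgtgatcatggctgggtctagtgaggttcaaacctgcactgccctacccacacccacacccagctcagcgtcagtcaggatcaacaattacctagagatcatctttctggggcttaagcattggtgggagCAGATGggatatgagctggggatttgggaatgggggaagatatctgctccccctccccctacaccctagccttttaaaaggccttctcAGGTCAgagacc
Arhgef33: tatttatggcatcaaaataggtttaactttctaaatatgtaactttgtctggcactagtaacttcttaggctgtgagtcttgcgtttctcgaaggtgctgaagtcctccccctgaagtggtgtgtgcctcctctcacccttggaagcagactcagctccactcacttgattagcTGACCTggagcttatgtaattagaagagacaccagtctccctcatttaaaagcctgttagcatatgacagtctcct
Grin2c: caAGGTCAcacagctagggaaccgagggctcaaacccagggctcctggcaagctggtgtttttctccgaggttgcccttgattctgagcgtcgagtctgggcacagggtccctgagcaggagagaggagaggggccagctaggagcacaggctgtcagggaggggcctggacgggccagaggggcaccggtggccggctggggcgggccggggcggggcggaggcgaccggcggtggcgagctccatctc
Kcnf1: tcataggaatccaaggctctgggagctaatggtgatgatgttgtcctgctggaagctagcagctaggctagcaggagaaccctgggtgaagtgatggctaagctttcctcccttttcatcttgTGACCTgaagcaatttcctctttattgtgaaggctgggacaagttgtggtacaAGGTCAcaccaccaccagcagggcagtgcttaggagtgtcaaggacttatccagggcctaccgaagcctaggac

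**Figure D1:**
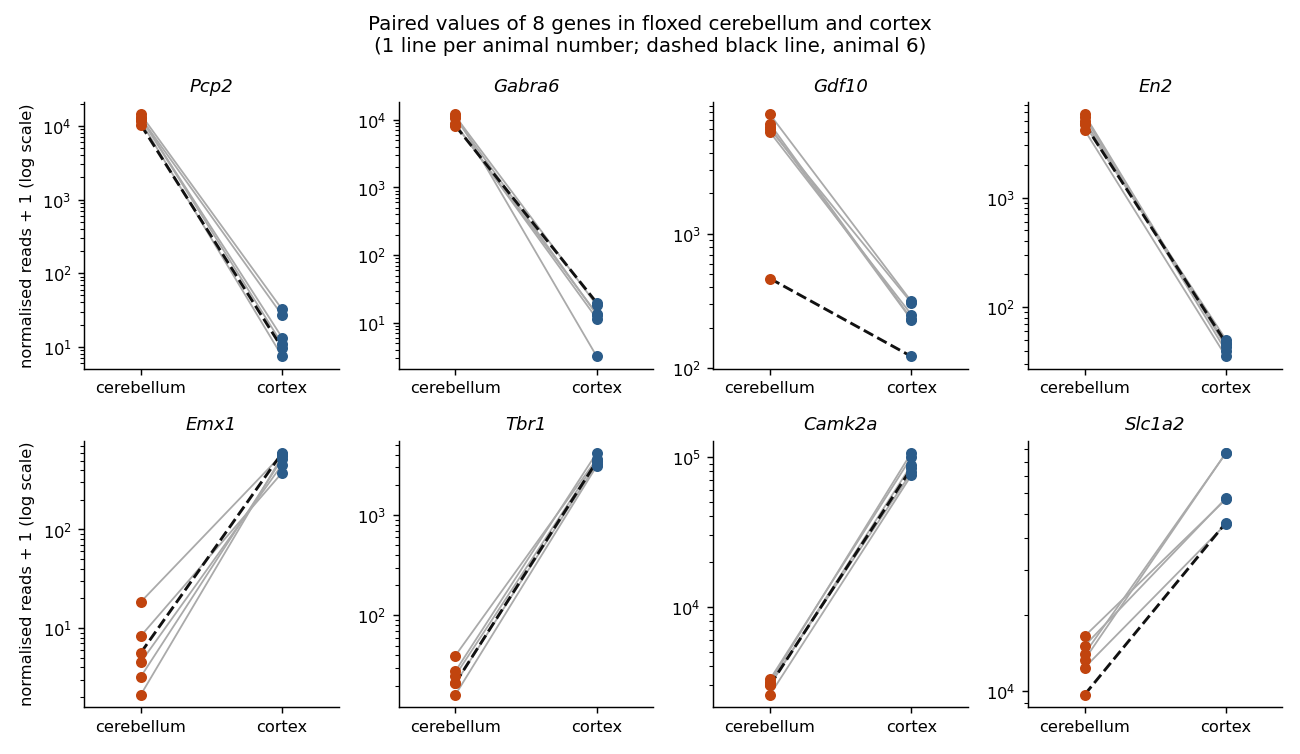
Normalised reads plus 1 (log axis) of 8 genes in floxed cerebellum (orange, left) and floxed cortex (blue, right), with 1 line per animal number and a dashed black line for animal 6. Pcp2, Gabra6, Gdf10 and En2 were higher in every cerebellum than in its paired cortex and Emx1, Tbr1, Camk2a and Slc1a2 were lower, and the Gdf10 value of cerebellum 6 (465.0) lay far below the other cerebella.

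Inhibitory neuron genes did not move as 1 group. Pvalb (parvalbumin), the calcium buffer of Purkinje cells, cerebellar interneurons and fast-spiking cortical cells, had 16906 to 24747 (median 21134) normalised reads in cerebellum and 805 to 1673 (median 1136) in cortex (log2 fold 4.16, SE 0.08, adjusted p = 1.09e-10). All cerebella were above all cortices. The GABA-synthesis gene Gad1 had 7067 to 15328 (median 12085) in cerebellum and 9288 to 11998 (median 10784) in cortex and did not pass the test (log2 fold 0.13, SE 0.10, adjusted p = 0.297; 0.23, adjusted p = 0.0223, without animal 6). Its paralogue Gad2 was lower in cerebellum, with 1927 to 3559.9 (median 2364) against 5286 to 7854 (median 6350.1) in cortex (log2 fold -1.37, SE 0.10). The vesicular GABA transporter gene Slc32a1 was close to the threshold (log2 fold -0.26, adjusted p = 0.0456, and -0.14 (adjusted p = 0.0688) without animal 6). Of 12 markers of cerebellar interneurons and unipolar brush cells, 7 were 2-fold or more higher and 3 lower. Kit, a receptor tyrosine kinase of molecular layer interneurons, had 1716 to 6449 (median 5399) in cerebellum and 989 to 1167 (median 1094) in cortex (log2 fold 2.06, SE 0.25; 2.35 without animal 6), and the low value belonged to cerebellum 6. Tfap2b, an AP-2 factor of the inhibitory lineage, rose by 5.19 (SE 0.23), and Eomes, a T-box factor of unipolar brush cells, by 3.49 (SE 0.46). Slc6a5, the transporter of glycinergic Golgi cells, was at 31.0 to 157 in cerebellum and 0 to 1.2 in cortex.

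Bergmann glia genes were higher in cerebellum, with 7 of 12 at a fold of 2 or more and none 2-fold lower (median log2 fold 2.36). Dao, which degrades D-serine, had 178 to 2879.8 (median 2488) normalised reads in cerebellum and 2.5 to 11.9 (median 4.5) in cortex (log2 fold 8.11, SE 0.47, adjusted p = 1.95e-06; 8.59 without animal 6). Gdf10, a secreted ligand of the TGF-beta family, had 465 to 7722 (median 6112) against 122 to 314 (median 242) (log2 fold 4.15, SE 0.40; 4.59 without animal 6). The lowest cerebellum for both genes was number 6, which still lay above all 6 cortices. Hopx, a homeodomain-only protein gene, rose by 2.46 (SE 0.21) and Slc1a3 (GLAST), the main glutamate transporter of these cells, by 0.77 (SE 0.21), with 2.66 and 0.97 without animal 6. Fabp7, a fatty acid-binding protein gene of radial glia, had 831 to 3614 (median 1128) in cerebellum and 637 to 1619 (median 1001) in cortex, which overlap (log2 fold 0.38, SE 0.13, adjusted p = 0.0327; 0.22 without animal 6). Its call was lost without the replicate block (adjusted p = 0.326), and its highest value, 3614, was that of cerebellum 6.

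Of 23 astrocyte genes, 5 were 2-fold or more higher and 4 lower (5 lower without animal 6), with a median of 0.28. Over all genes tested the shares were 6.98% higher and 16.8% lower, and the count of lower astrocyte genes lay near its share. S100b, a calcium-binding protein gene, had 6120.3 to 15399 (median 13696) normalised reads in cerebellum and 1578 to 4414 (median 3190.3) in cortex (log2 fold 2.04, SE 0.07; 2.06 without animal 6). Agt, the angiotensin precursor gene, had 1614 to 5126 (median 2295) against 229.8 to 1056 (median 628) (log2 fold 2.06, SE 0.33) and Aqp4, the water channel of astrocyte endfeet, 3024 to 8577 (median 6001) against 754 to 3109 (median 2449.9) (log2 fold 1.57, SE 0.15). Each of the 3 was higher in the cerebellum of all 6 animals. Slc6a9, the glycine transporter GLYT1, was also higher, by 1.08 (SE 0.09). In the other direction, Slc1a2 (GLT-1), the main glutamate transporter of forebrain astrocytes, had 9671 to 16431 (median 13652) in cerebellum and 45492 to 86680.3 (median 57186) in cortex (log2 fold -2.20, SE 0.13, adjusted p = 2.86e-07). Slc6a11, the GABA transporter GAT-3, fell by 1.82, Mfge8, a phagocytosis bridge protein gene, fell by 1.36, and Glul (glutamine synthetase) fell by 0.91. Some other members of the same list showed small or no differences. Aldh1l1 had a log2 fold of 0.33 (adjusted p = 0.0848), the connexin gene Gja1 -0.12 (adjusted p = 0.444) and the transcription factor gene Sox9 0.34 (adjusted p = 0.00807). Without animal 6 the fold of Gja1 was -0.02. Gfap had 4241 to 25729 (median 4693) in cerebellum and 2631 to 6348 (median 4714) in cortex and did not pass the test (log2 fold 0.48, SE 0.29, adjusted p = 0.177). Without animal 6 its fold was 0.18 (adjusted p = 0.194).

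Genes that pattern the neural tube gave some of the largest folds. Of 9 forebrain transcription factors, 7 were 2-fold or more lower in cerebellum (median log2 fold -6.27). Emx1, a homeobox factor of the dorsal telencephalon, had 1.1 to 17.4 (median 4.1) normalised reads in cerebellum and 376 to 598 (median 537) in cortex (log2 fold -6.54, SE 0.37, adjusted p = 2.94e-07). The lowest cortex lay above the highest cerebellum. Lhx2, a cortical selector gene, had 6.3 to 75.3 (median 29.5) against 1639 to 2052 (median 1946) (log2 fold -6.27, SE 0.43). Of 16 midbrain and hindbrain factors, 13 passed the filter and 12 of those were 2-fold or more higher in cerebellum (median 4.72). The 1 lower member, named after its values were seen, was Gbx2, at a log2 fold of -3.75, the low end of the list. En2 (chr5:28165694-28172166, plus strand), an engrailed homeobox factor of the midbrain-hindbrain boundary, had 4139 to 5732 (median 4867) in cerebellum and 34.4 to 49.5 (median 43.7) in cortex (log2 fold 6.83, SE 0.09, adjusted p = 3.04e-11). Its relative En1 was at 152 to 300.3 in cerebellum and 0 to 4.5 in cortex. Cnpy1 (chr5:28200819-28245806, minus strand), which lies beside En2 on chromosome 5 and in zebrafish regulates FGF signalling at that boundary, had 9139 to 12482 (median 11336) against 2.9 to 30.4 (median 16) (log2 fold 9.48, SE 0.33). Atoh1, which drives granule cell precursors, reached at most 1.3 in cerebellum and was not tested. None of the 14 Hox genes searched passed the filter, and their highest value was 12.8 in cerebellum and 3.3 in cortex.

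Markers of cortical projection neurons were lower in cerebellum, with 21 of 24 at a fold of 2 or more and a median log2 fold of -4.80. The other 3 were called higher, 1 of them by 2-fold or more and 2 without animal 6. Tbr1 (chr2:61802930-61814114, plus strand), a T-box factor of deep-layer neurons, had 15.2 to 38.8 (median 22.2) normalised reads in cerebellum and 3078 to 4161 (median 3453) in cortex (log2 fold -7.17, SE 0.13, adjusted p = 9.15e-11). Fezf2, a factor of corticospinal neurons, had 1.0 to 3.5 (median 1.4) against 352 to 893 (median 621) (log2 fold -7.80, SE 0.29). For both genes the lowest cortex lay far above the highest cerebellum. Camk2a, the calcium kinase subunit of forebrain excitatory synapses, had 2584 to 3274 (median 3022) in cerebellum and 75068 to 106082 (median 85672) in cortex (log2 fold -4.87, SE 0.06). Nrgn (neurogranin), a calmodulin-binding postsynaptic protein gene, had 329 to 3881 (median 1038) against 49829 to 86090.4 (median 57108) (log2 fold -5.79, SE 0.63), with a wide spread among the cerebella. Bcl11b (Ctip2), also a striatal gene, fell by 6.12 on the log2 scale, and Mef2c, an activity-dependent MADS box factor, fell by 3.67. The upper-layer genes Cux2 and Rorb had smaller folds: Cux2 fell by 1.42 and Rorb fell by 1.88.

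Paralogues of the NeuroD family went in opposite directions. Neurod6, a marker of cortical excitatory neurons, had 83.7 to 158 (median 108) in cerebellum and 824 to 1795 (median 1209.5) in cortex (log2 fold -3.40, SE 0.13, adjusted p = 7.09e-09). Neurod2, often used as a forebrain marker, was higher in cerebellum, with 3731 to 6430.0 (median 5729) against 2199.8 to 3532 (median 2789.9) (log2 fold 0.96, SE 0.16, adjusted p = 6.86e-04; 1.14 without animal 6 and 0.03 in cKO mice). With Neurod1 this gave 2 members higher and 1 lower among these 3, each in the same direction in all 6 animals.

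The 12 largest falls, among called genes with a mean log2 value of 8 or more and the same direction in all 6 animals, held several synaptic and signalling genes of forebrain neurons. Ddn (dendrin), a postsynaptic protein gene, had 93.0 to 196 (median 147) normalised reads in cerebellum and 43979 to 56293 (median 49939) in cortex (log2 fold -8.48, SE 0.16) and Icam5 (telencephalin), an adhesion molecule of telencephalic dendrites, 38.2 to 141 (median 55.9) against 8546 to 11938 (median 10547) (log2 fold -7.38, SE 0.23). No cerebellum came near the cortical range. The muscarinic receptor gene Chrm1 fell by 7.53, the inward rectifier gene Kcnj4 fell by 7.33, the activity-induced zinc finger gene Egr3 fell by 7.11, Lamp5, a marker of upper-layer and neurogliaform cells, fell by 6.97, and the potassium channel subunit gene Kcnf1 fell by 6.82. Gda (guanine deaminase) fell by 6.73, the copine gene Cpne5 fell by 6.40 and Stx1a, a syntaxin of synaptic vesicle fusion, fell by 6.31. Stx1a had 84.8 to 178 (median 104) in cerebellum and 7597 to 10619 (median 9192) in cortex. By the same rule, the 12 largest rises were Pcp2, Gabra6, Cnpy1, Cbln3, Fat2, Ppp1r17, En2, Car8, Cbln1, Arhgef33, Il16 and Ttr. Il16, a cytokine precursor gene with a neuronal isoform in the cerebellum, had 4468 to 5346 (median 4727) in cerebellum and 58.3 to 112 (median 90.7) in cortex (log2 fold 5.74, SE 0.11), and Arhgef33, a predicted guanine nucleotide exchange factor gene, 2775 to 5772 (median 4796) against 53.4 to 151 (median 57.4) (log2 fold 6.04, SE 0.34).

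Cortical interneuron markers were mostly lower, with 21 of 24 at a fold of 2 or more (median -5.22). Another 2 were called higher, by at most 0.80, and 1 was not called. Without animal 6, 1 member was 2-fold or more higher. Sst (somatostatin) had 57.9 to 508 (median 197) normalised reads in cerebellum and 5399.9 to 8494 (median 5809) in cortex (log2 fold -5.13, SE 0.55, adjusted p = 2.30e-04), and Vip had 3.5 to 34.9 (median 10.6) against 490.3 to 733 (median 584) (log2 fold -5.67, SE 0.47). Npy fell by 2.69 and Cck, a peptide also of pyramidal cells, fell by 2.27. The ventral forebrain homeobox genes Lhx6 and Dlx1 had 4.9 to 9.4 (median 6.0) and 1.0 to 7.9 (median 2.7) in cerebellum, against 599.8 to 857 (median 737) and 689 to 1057 (median 868) in cortex (log2 folds -6.62, SE 0.15, and -7.71, SE 0.27). The cerebellar values were scarcely above 0.

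Striatal projection neuron genes were present in the dissected cortex. All 13 of these markers were 2-fold or more lower in cerebellum (median -5.71), and their summed value was 12472 to 16195 (median 13779) in cerebellum and 69119 to 102034 (median 90292) in cortex. Drd1 and Drd2, the dopamine receptors of the direct and indirect pathways, had 3.6 to 11.9 (median 6.9) and 15.5 to 113 (median 40.3) in cerebellum and 1322 to 1845 (median 1791) and 1643 to 2688 (median 2413) in cortex (log2 folds -7.70, SE 0.18, and -5.79, SE 0.54). Adora2a, the adenosine receptor of indirect pathway neurons, had 61.5 to 86.8 (median 71.0) against 2846 to 4812 (median 3823) (log2 fold -5.71, SE 0.09, adjusted p = 3.95e-11), and Rgs9, a G protein regulator of striatum, 125 to 266 (median 146) against 5504 to 7150.4 (median 6568) (log2 fold -5.35, SE 0.16). Ppp1r1b (DARPP-32) differed least, with 5895 to 8853 (median 7186) in cerebellum and 21969 to 31336 (median 24646) in cortex (log2 fold -1.77, SE 0.09). The lowest striatal sum among the cortices was that of number 6. How far striatal tissue in the cortical dissection contributes to other folds was not tested.

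**Figure D2:**
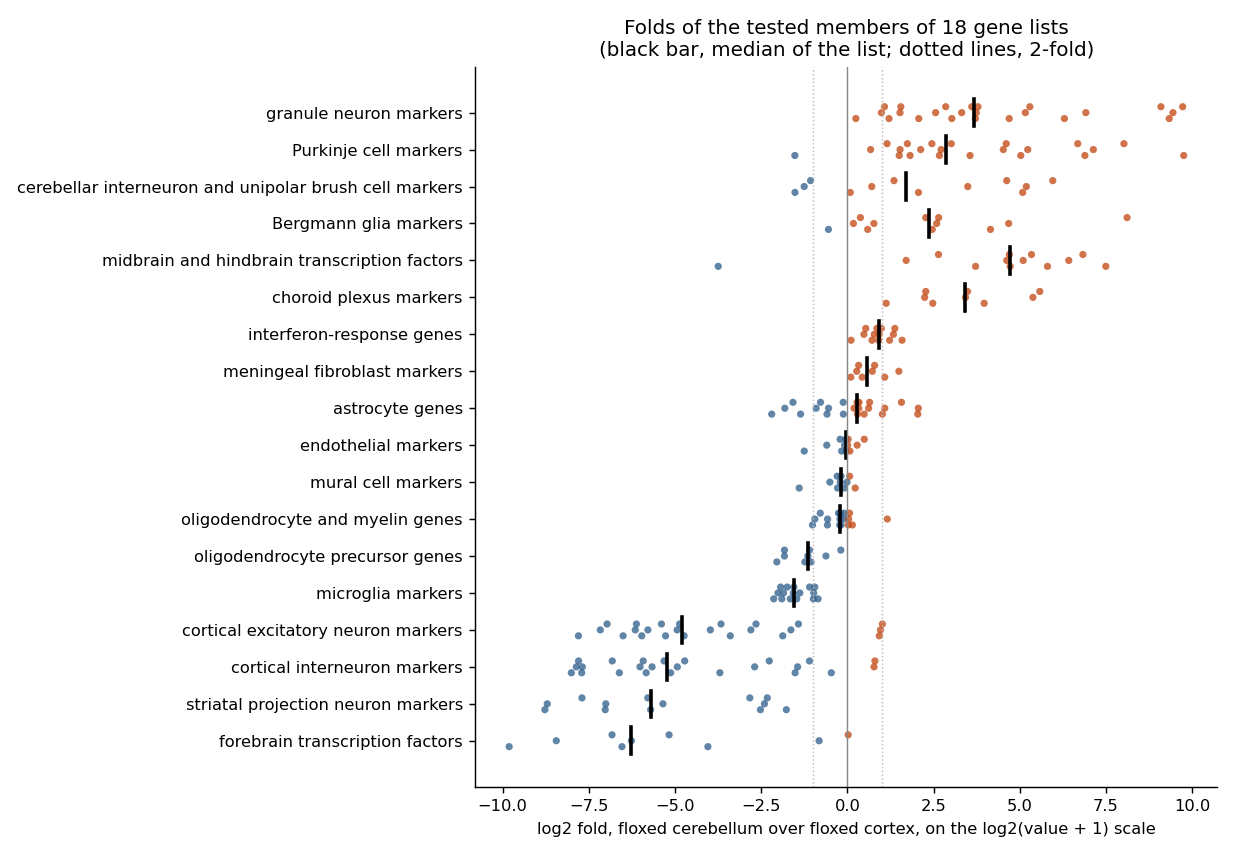
Log2 folds (floxed cerebellum over floxed cortex, log2(value + 1) scale) of the tested members of 18 gene lists, orange where positive and blue where negative, with a black bar at the list's median and dotted lines at 2-fold. Granule neuron, Purkinje cell and hindbrain lists lie right of 0 (medians 3.66, 2.86 and 4.72), vascular and myelin lists lie near 0, and forebrain neuron lists lie left (medians -4.80, -5.22 and -5.71).

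Few myelin genes differed by 2-fold, while most oligodendrocyte precursor genes were lower. Mbp, the major myelin protein gene, had 63509 to 115094 (median 99289) normalised reads in cerebellum and 58504 to 124914 (median 90556) in cortex, with a log2 fold of 0.02 (95% interval -0.19 to 0.23). The values of the tissues overlapped. Of 17 myelin genes 1 was 2-fold or more higher and 1 lower (median -0.21; 0 and 1 without animal 6), and Mog, a gene of the outer myelin surface, had a fold of -0.19 (adjusted p = 0.0948), and -0.26 (adjusted p = 0.0128) without animal 6. Of 9 precursor genes, 7 were 2-fold or more lower (median -1.15), a count that was 3 with equal totals. Pdgfra, the growth factor receptor of precursors, had 327 to 547 (median 441) in cerebellum and 1052 to 1997 (median 1578) in cortex (log2 fold -1.83, SE 0.10, adjusted p = 8.23e-08), and Gpr17, a receptor of differentiating cells, 439.7 to 723 (median 515) against 1513 to 2432 (median 1814) (log2 fold -1.83, SE 0.10). For both genes all cerebella lay below all cortices.

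Microglia markers were lower in cerebellum, 12 of 16 by 2-fold or more (median -1.56) and all 16 without animal 6. Their summed value was 17946 in cerebellum 6, 4378 to 5198 in the other 5 cerebella and 12912 to 19008 in the cortices. P2ry12, the ADP receptor that marks resting microglia, had 112 to 283 (median 155) in cerebellum and 481 to 817 (median 654) in cortex (log2 fold -2.01, SE 0.23, adjusted p = 6.36e-05). Cx3cr1, the fractalkine receptor gene, had 247 to 829 (median 269.7) against 1082 to 1555 (median 1171) (log2 fold -1.94, SE 0.25; -2.23 without animal 6), and Tmem119 166 to 457 (median 191) against 462 to 879 (median 674) (log2 fold -1.57, SE 0.26; -1.88 without animal 6). No cerebellum reached the cortical range for these 3 genes, although number 6 came closest for each.

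Vascular genes differed little. Of 12 endothelial markers 1 was 2-fold or more lower and none higher (median -0.04), and of 10 mural markers 1 was lower and none higher (median -0.20). Cldn5, the tight junction gene of the blood-brain barrier, had 1057 to 1905 (median 1587) in cerebellum and 1205 to 1814 (median 1422) in cortex (log2 fold 0.07, 95% interval -0.17 to 0.32). The pericyte gene Rgs5 had a fold of -0.01 (-0.33 to 0.31), and Pdgfrb fell by 0.51.

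Choroid plexus genes were higher in cerebellum and varied widely between libraries. All 9 were 2-fold or more higher (median 3.42), and 5 were so without animal 6. Ttr (transthyretin), the thyroid hormone carrier made by choroid epithelium, had 65480.4, 36408, 22194, 659, 27256 and 37849 normalised reads in cerebella 1 to 6, against 142 to 7156 in cortex (log2 fold 5.58, SE 1.19, adjusted p = 0.00821; 4.52 with adjusted p = 0.0871 in animals 1 to 4 alone). Cerebellum 4 was far below the other 5, and cortex 3, at 7156, far above the other cortices, so the groups overlapped. Otx2, a homeobox factor of choroid epithelium and of hindbrain neurons, had 261 to 466 (median 354) in cerebellum and 22.1 to 46.4 (median 29.6) in cortex (log2 fold 3.48, SE 0.19) and varied far less. Of 8 meningeal fibroblast genes 2 were 2-fold or more higher, among them Dcn (decorin) at 1.49 (SE 0.31). Without animal 6 the count was 1 and the fold of Dcn 1.16. Igf2 had 3137 to 4042 (median 3356) against 1613 to 2592 (median 2044) (log2 fold 0.79, SE 0.09), and Col1a1 had 0.43 (adjusted p = 0.223) and did not pass.

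Of 13 interferon-response genes tested, 4 were 2-fold or more higher (median 0.90), 2 without animal 6 and 9 with equal totals. Their summed value was 10672 in cerebellum 6, 2031 to 5026 in the other cerebella and 1707 to 3104 in the cortices. Irf7, the transcription factor of this response, had 65.8 to 1169.6 (median 135) in cerebellum and 34.9 to 103 (median 71.0) in cortex (log2 fold 1.33, adjusted p = 0.00969, 0.90 without animal 6), and its adjusted p was 0.0703 without the replicate block. Isg15, a ubiquitin-like effector, had 40.2 to 249.6 (median 82.6) against 36.0 to 53.7 (median 45.7) (log2 fold 0.92, adjusted p = 0.021). Ifi27 and Oasl2 did not pass the test (log2 folds 0.10, adjusted p = 0.526, and 0.71, adjusted p = 0.0662).

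**Figure D3:**
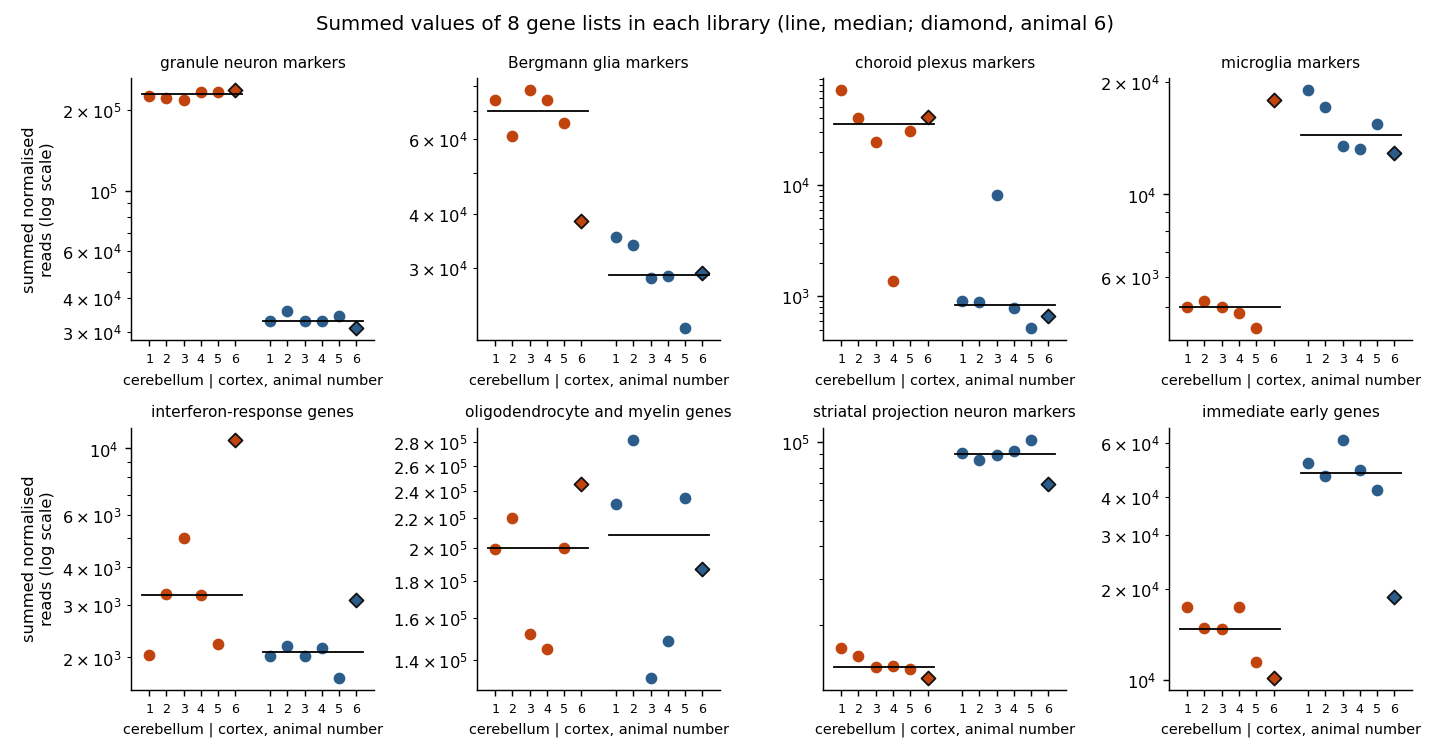
Summed normalised reads (log axes) of 8 gene lists in each floxed cerebellum (orange, left) and floxed cortex (blue, right) by animal number, with a line at the median and diamonds for animal 6. Granule neuron and striatal sums separate the tissues by a wide margin, choroid plexus sums are low in cerebellum 4 and high in cortex 3, and cerebellum 6 is high for microglia and interferon-response genes.

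Glutamate receptor genes changed subunit by subunit. Among the 16 AMPA receptor and auxiliary genes, 3 were 2-fold or more higher in cerebellum and 10 lower (median -1.37). Gria4 had 3569 to 11414 (median 9333) normalised reads in cerebellum and 2119 to 2568 (median 2377) in cortex (log2 fold 1.80, SE 0.18, adjusted p = 4.14e-05), with all cerebella above all cortices. Gria2 and Gria3 were lower, with 6231 to 10183 (median 8812) and 1455 to 3244 (median 2401) against 15633 to 20522 (median 18339) and 5608 to 6646 (median 6094) (log2 folds -1.10, SE 0.08, and -1.38, SE 0.13). Gria1 did not pass the test (log2 fold 0.01, adjusted p = 0.951), and its fold without animal 6 was 0.24 (adjusted p = 0.00617). Of the auxiliary subunits, Cacng2 (stargazin), first known from an ataxic mouse, rose by 0.81 (SE 0.08) and Cacng3 fell by 3.84.

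Among 7 NMDA receptor genes, 2 were 2-fold or more higher and 3 lower (2 lower without animal 6). Grin2c, the subunit of mature granule neurons, had 12943 to 23752 (median 16808) in cerebellum and 845 to 3237 (median 2719) in cortex (log2 fold 2.85, SE 0.29, adjusted p = 1.05e-04). Grin2b, a forebrain and juvenile subunit, had 359 to 735 (median 558) against 10626 to 16793 (median 14423) (log2 fold -4.67, SE 0.10, adjusted p = 3.60e-10). Per kb of exon length, Grin2c averaged 3436 normalised reads in cerebellum and 507 in cortex, while Grin2b averaged 22.9 and 574. Grin2a and the obligatory subunit gene Grin1 were lower: Grin2a fell by 1.63, Grin1 fell by 0.82 and Grin3a fell by 1.08.

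Of 7 kainate and delta receptor genes, 1 was 2-fold or more higher and 3 lower (median -0.58, with 2 lower without animal 6). Grid1, a delta receptor gene whose product binds cerebellins at synapses, had 277 to 560.3 (median 472) in cerebellum and 1529 to 1890.3 (median 1724) in cortex (log2 fold -1.98, SE 0.14, adjusted p = 1.26e-06). It was lower in the cerebellum of all 6 animals. The kainate receptor gene Grik1 rose by 0.75 (SE 0.14). All 7 metabotropic receptor genes were called at a fold of 2 or more, 2 higher and 5 lower. Grm4, a presynaptic receptor of granule neurons, had 13265 to 16295 (median 14936) against 1213 to 1555 (median 1538) (log2 fold 3.32, SE 0.08). Grm5, a group I receptor of forebrain neurons, had 162 to 352 (median 226) against 4736 to 6163 (median 5717) (log2 fold -4.59, SE 0.17).

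Among 14 GABA-A receptor genes, 2 were 2-fold or more higher and 9 lower (median -1.31; 1 and 8 without animal 6). Gabrd, the extrasynaptic delta subunit that pairs with alpha6, had 3942 to 6129 (median 4959) in cerebellum and 2093 to 2953 (median 2203) in cortex (log2 fold 1.07, SE 0.09, adjusted p = 3.59e-06; 0.98 without animal 6). Gabra5, an extrasynaptic subunit of forebrain neurons, had 22.2 to 66.0 (median 34.1) against 938 to 1529.6 (median 1397) (log2 fold -5.17, SE 0.23, adjusted p = 8.42e-08), and Gabra2 fell by 1.69. Per kb of exon length, Gabra6 averaged 3972 normalised reads in cerebellum and 4.94 in cortex, and Gabra5 averaged 12.6 and 442, so Gabra6 was the more abundant of the 2 in cerebellum and Gabra5 in cortex.

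**Figure D4:**
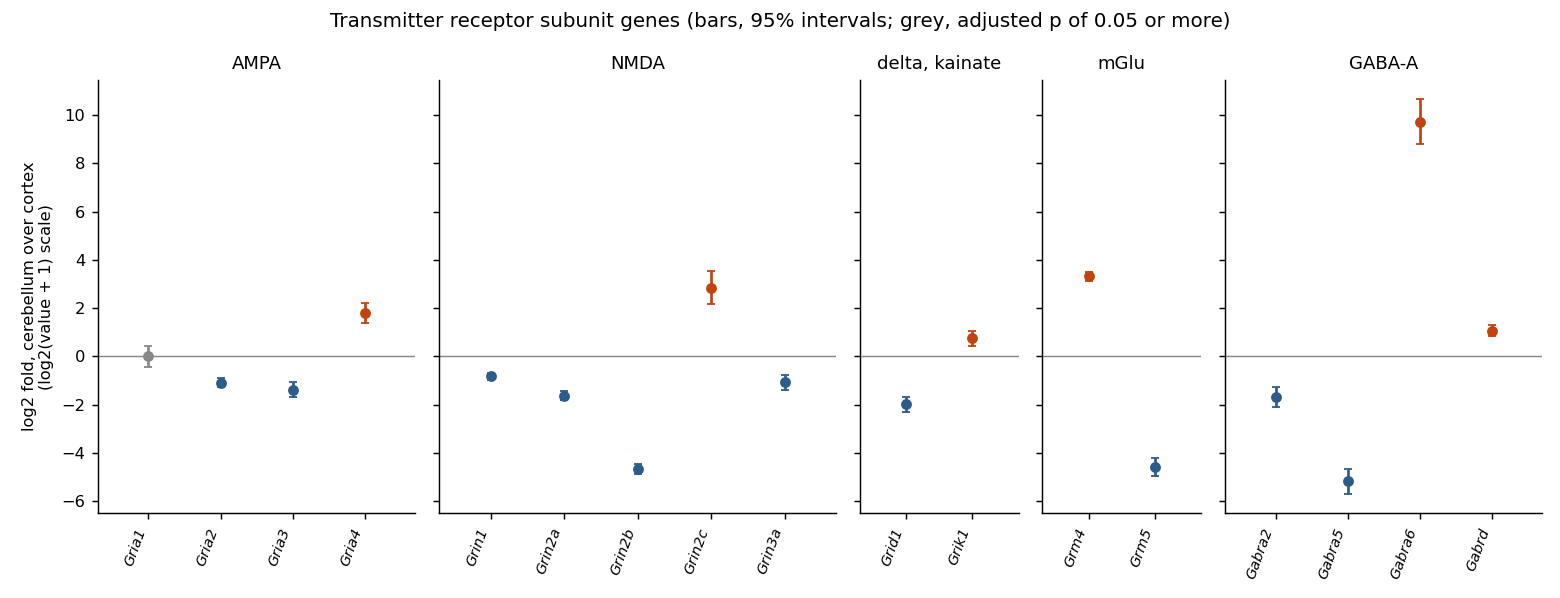
Log2 folds (floxed cerebellum over floxed cortex, log2(value + 1) scale) of the glutamate and GABA-A receptor genes named in the text with 95% intervals, orange where higher, blue where lower and grey where the adjusted p was 0.05 or more. Gabra6, Grm4 and Grin2c lie well above 0 (9.72, 3.32 and 2.85) and Gabra5, Grin2b and Grm5 well below it (-5.17, -4.67 and -4.59).

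Of the vesicular glutamate transporters that load excitatory synapses, 1 was lower and 1 did not pass the test. Slc17a7 (VGLUT1) had 14886 to 20827 (median 17186) normalised reads in cerebellum and 34454 to 49779 (median 43976) in cortex (log2 fold -1.30, SE 0.09, adjusted p = 5.51e-07), without overlap. Slc17a6 (VGLUT2) had 155 to 713 (median 376) against 353 to 999 (median 518) (log2 fold -0.73, adjusted p = 0.085). Cerebellins, synaptic organisers that link neurexins to delta receptors, differed by member. Cbln1 had 24227 to 39006 (median 28337) in cerebellum and 210.4 to 621 (median 395) in cortex (log2 fold 6.29, SE 0.18, adjusted p = 2.67e-08) and Cbln3 25539 to 40883 (median 29239.8) against 14.5 to 71.3 (median 44.5) (log2 fold 9.44, SE 0.27). Cbln2 and Cbln4 were lower in cerebellum, with 6.5 to 166 (median 35.6) and 11.1 to 57.0 (median 29.8) against 695 to 966 (median 777) and 239 to 364 (median 321) (log2 folds -4.65, SE 0.79, and -3.39, SE 0.29). Of the related C1q-like genes, C1ql3 fell by 3.26 and C1ql1, made by the climbing fibre neurons outside the cerebellum, fell by 1.28.

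Potassium channel genes split by member. Kcnc1, a Kv3 channel of fast-spiking neurons, had 11603 to 19758 (median 18026) normalised reads in cerebellum and 5788 to 7553 (median 6890.0) in cortex (log2 fold 1.35, SE 0.08), while its relative Kcnc2 had 53.2 to 251 (median 142) against 1839.9 to 2173 (median 1941) (log2 fold -3.89, SE 0.29). The groups did not overlap for either. Kcnd2, an A-type channel of granule neurons, rose by 0.83 (SE 0.07) and Kcna1 by 0.53 (SE 0.07). Of 23 potassium channel genes, 3 were 2-fold or more higher and 10 lower. Of 17 calcium channel and store genes, 11 were lower and 6 higher, 5 and 4 of them by 2-fold or more (median -0.46). By 2-fold or more, 6 were lower and 6 higher without animal 6. Cacna1a, the P/Q-type channel, had 12978 to 15525 (median 14326) in cerebellum and 5855 to 6917 (median 6749.8) in cortex (log2 fold 1.13, SE 0.06), and Cacna1g, a T-type channel, 6492 to 13033 (median 10276) against 2918 to 3803 (median 3595) (log2 fold 1.5, SE 0.12). Cacna1i, another T-type channel, fell by 0.77, a difference smaller than 2-fold. Cacna2d2, the subunit mutated in ducky mice, rose by 0.96 (SE 0.10) and Ryr1, an intracellular release channel, by 0.94 (SE 0.10). Of 8 sodium channel genes none was 2-fold or more higher and 3 were lower, among them Scn3b at -5.09 (SE 0.18).

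Sonic hedgehog, a mitogen of granule precursors released by Purkinje cells, acts through the receptor Ptch1 and Gli factors. Shh itself had 122 to 284 (median 204) in cerebellum and 134 to 203 (median 153) in cortex and did not pass (log2 fold 0.33, adjusted p = 0.108; 0.47, adjusted p = 0.014, without animal 6). Gli1, a target of the pathway, had 115 to 1045 (median 734) against 94.4 to 200.4 (median 169) (log2 fold 1.92, adjusted p = 0.0136; 2.47 without animal 6), and Ptch1, also a target, 2418 to 5294 (median 4439.6) against 1314 to 2668 (median 2052) (log2 fold 1.01, SE 0.16). The low Gli1 value in cerebellum, 115, belonged to number 6 and lay within the cortical range. Of 12 genes of the pathway, 3 were 2-fold or more higher and 1 lower (4 and 1 without animal 6).

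Immediate early genes, induced by neuronal firing, were mostly lower, with 11 of 17 at a fold of 2 or more and 1 higher (median -2.40). Arc, a regulator of synaptic strength, had 470.3 to 678 (median 608) normalised reads in cerebellum and 1747 to 10633 (median 8464) in cortex (log2 fold -3.51, SE 0.39, adjusted p = 2.45e-04). Egr1 had 1058 to 1522 (median 1327) against 2979 to 13503 (median 8850.3) (log2 fold -2.63, SE 0.29), Junb fell by 2.40, Npas4 fell by 2.69 and Nr4a1 fell by 1.76. The lowest cortical values of Arc and Egr1 were those of number 6, and they still exceeded every cerebellum. Of all 17, 3 passed the test higher and 12 lower. Fos had 186 to 2518 (median 1724) in cerebellum and 165 to 1727 (median 1414) in cortex. Its fold was 0.31 (adjusted p = 0.0101) within animals and its adjusted p was 0.728 without the replicate block. Both tissues of animal 6 were low (186 and 165).

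Receptors for modulatory transmitters were lower in cerebellum, 14 of 16 by 2-fold or more (median -3.75). Htr1a and Htr2a, serotonin receptor genes, had 7.4 to 45.2 (median 24.2) and 1.2 to 17.9 (median 9.2) in cerebellum and 408 to 645 (median 502) and 218 to 369 (median 349) in cortex (log2 folds -4.64, SE 0.36, and -5.15, SE 0.32). The exception was Cnr1, the cannabinoid receptor of granule cell axons and cortical interneurons, with 6509 to 9812 (median 7463) against 4225 to 4963 (median 4498) (log2 fold 0.77, SE 0.08, adjusted p = 1.11e-05), and the 2 groups did not overlap. Of 9 neurotrophin and GDNF family genes, 5 were 2-fold or more lower and 2 higher (median -1.18). Ntf3, a neurotrophin gene, had 106 to 214 (median 146) in cerebellum and 26.8 to 43.9 (median 31.3) in cortex (log2 fold 2.13, SE 0.17), and its receptor gene Ntrk3 rose by 0.30 (SE 0.09). Bdnf was close to the threshold (log2 fold -0.34, adjusted p = 0.031) and did not pass with equal totals (-0.05, adjusted p = 0.716). Of 7 thyroid hormone genes, Hr, a corepressor of the hormone's receptor, had 3035 to 4574 (median 4145) against 1059 to 1747 (median 1368) (log2 fold 1.54, SE 0.07), Crym, a cytosolic hormone-binding protein gene, 2.1 to 16.6 (median 5.8) against 1492 to 3541 (median 2743) (log2 fold -8.48, SE 0.20), and Dio2, the activating deiodinase of astrocytes, fell by 1.66. Of 8 perineuronal matrix genes 4 were 2-fold or more lower, among them Acan (aggrecan) at -1.26 (SE 0.18), while Hapln4, a link protein of cerebellar nets, rose by 0.49 (SE 0.07).

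A 95% interval of the log2 fold within 0.25 of 0 was reached by 1576 genes. The 5 of these with the highest level were Mbp, the glycolytic enzyme gene Pkm (interval -0.18 to 0.21), the elongation factor genes Eef1a2 (-0.12 to 0.20) and Eef2 (-0.22 to 0.04), and the spectrin gene Sptan1 (-0.13 to 0.21). These intervals hold for the deposited scaling. With equal totals, which moved the median fold by 0.28, Eef1a2 had 0.33 (adjusted p = 0.0017).

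The regional folds recurred in the cKO mice, whose libraries are separate from the floxed ones. There 8271 of 15563 genes were called (53.1%), 2961 higher (19%) and 5310 lower (34.1%), with 1216 of them 2-fold or more higher (7.81%) and 2573 lower (16.5%). Leaving out cKO number 4 raised the calls to 9362, while leaving out any other number lowered them. Of the 1086 genes higher by 2-fold or more in floxed cerebellum, 1075 (99.0%) had the same direction in cKO mice and 978 (90.1%) were called in it, while 1 was called in the opposite one. Of the 2607 lower genes, 2552 (97.9%) had the same direction, 2254 (86.5%) were called in it and 4 in the opposite one. Without animal 6, 1019 of the 1086 and 2520 of the 2607 floxed calls remained. Purkinje cell and granule neuron markers kept their counts nearly, with 18 of 22 and 23 of 24 at 2-fold or more higher in cKO cerebellum. Bergmann glia markers had 5 of 12, microglia markers 3 of 16 lower and interferon-response genes 0 of 13, against 7, 12 and 4 in floxed mice. Meningeal fibroblast markers had 8 of 8 higher, against 2, and these differences between genotypes were not tested. Dao had a log2 fold of 4.76 in cKO mice, against 8.11 in floxed mice, and Gdf10 2.23 against 4.15.

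**Figure D5:**
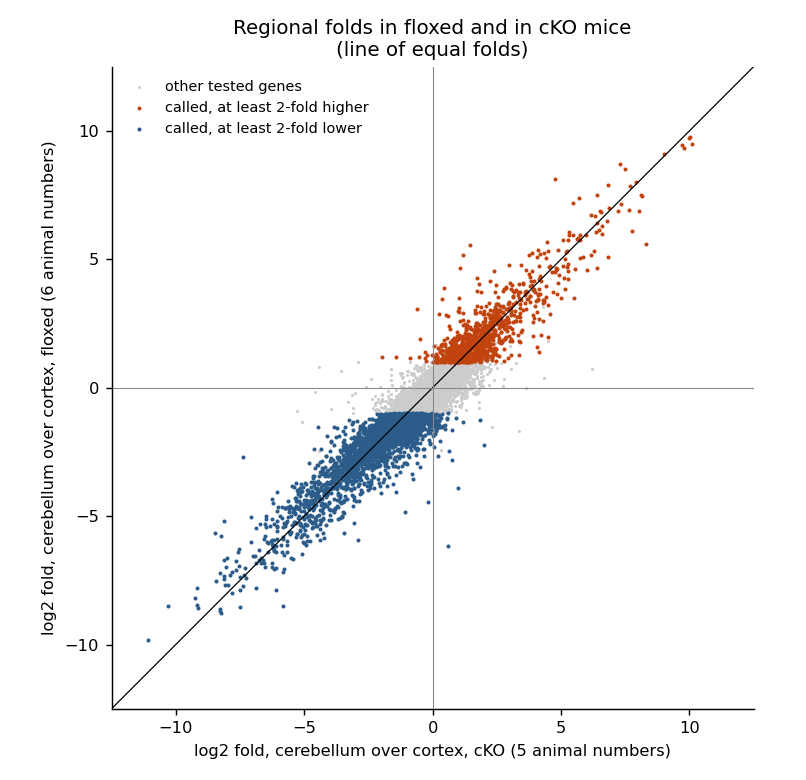
Log2 folds of cerebellum over cortex for 15563 genes in floxed mice (vertical, 6 animal numbers) and cKO mice (horizontal, 5 animal numbers), with genes 2-fold or more higher in floxed cerebellum in orange, lower in blue, others in grey and a line of equal folds. Nearly all orange and blue points keep their sign (1075 of 1086 and 2552 of 2607).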

How the data were processed

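Total RNA was extracted with TRIzol and polyadenylated RNA was sequenced from unstranded libraries, per the labels' protocols. Without strand, reads of overlapping or antisense genes cannot be told apart, and reads of near-identical globin genes may be split between them. STAR, Salmon, DESeq2 and the build mm10 are named per the submitters' processing notes, with no role or order. Although named as raw counts, the deposited table holds a normalised signal: library totals are nearly equal within a tissue, values are not whole, and how the authors normalised is not stated in those sources. Of 21984 low values, 87.2% lay within 0.1 of a whole multiple of a library's step (61.7 to 95.0% by library), so whole reads were not recovered and no count model was run. These steps gave the estimated reads.

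Of 24972 entries, 26 named as dates were dropped (at most 0.339% of a library's total) and 24946 kept, of which 24420 (97.9%) matched 1 gene of the GENCODE annotation (GRCm38). Values were analysed as log2(value + 1), so folds understate changes of low genes. The genes tested reached 10 in 6 or more of the 12 libraries, and the test was run with limma 3.58.1 (R 4.3.3; trend and robust variance), with animal number as a block and tissue as the term, and p-values were Benjamini-Hochberg adjusted over all 15563 genes. A call needs an adjusted p under 0.05, and the second rule also a log2 fold of 1 or more in size. The cKO repeat used the same genes. Summaries and the exact sign-flip test came from pandas 2.3.3 and numpy 2.4.6 (Python 3.11.15), and figures from matplotlib 3.10.9. In simulated data of 15663 genes, a small subset was given known folds and the others none. There 62.6% of 1.5-fold and 97% of 2-fold changes were recovered and 3.64% of calls were unchanged genes. The simulation had the same dispersion for every gene, no animal effect and a far smaller share of changed genes than the 67.4% called here. These rates therefore need not hold for the real comparison.

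The labels give the tissues the same numbers without saying outright that they mark 1 animal. Same-numbered libraries correlated in their deviations from the group means at 0.067 to 0.322, above every other number for 4 of 6. Replicates are separately labelled samples. The members and gene lists were chosen with earlier results of these data known. Genes named are preset key genes of each list, the 12 largest folds each way and the 5 most abundant genes of like level; some of these are not reported here. Alternatives covered pseudocount, filter, scaling, block, each animal left out, the animals labelled male alone, depth, weights and variance model. The 2 libraries with conflicting labels were not used.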

Additional observations from a re-analysis of the deposited data

Results flagged for a closer look

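In 49 of 366 groups of 6 libraries examined, 1 library stood apart from the other 5 of its tissue by Dixon's test, where chance gives about 1 in 20. Cerebellum 6 accounted for 26, cortex 6 for 13, cortex 5 for 4, cortices 1 and 3 for 2 each and cerebella 4 and 5 for 1 each.

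Cerebellum 6 was the highest cerebellum, in normalised reads, for the astrocyte and radial glia genes Gfap (25729.2) and Fabp7 (3614.2), the microglia genes Aif1 (187.9), Cx3cr1 (829.0) and Tmem119 (457.1), the matrix genes Col1a1 (1465.5) and Dcn (1614.0), and Ifi27 (1894.2), Th (3837.0), Rgs9 (266.3) and Cbln3 (40883.4). It was the lowest for the glial genes Dao (177.6), Gdf10 (465.0), Gja1 (1275.3), Hopx (2676.0), S100b (6120.3), Slc1a3 (14709.2) and Gli1 (115.1). It was also the lowest for the neuronal genes Cux2 (802.7), Gria1 (5616.5), Gria4 (3568.9), Kcnc1 (11602.5), Kit (1716.3), Neurod2 (3731.2), Npy (113.5) and Slc32a1 (4041.4). The part of cell makeup, dissection, handling or labelling of this animal's cerebellum was not tested.

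Cortex 6 was the lowest cortex for the activity-induced genes Arc (1747.1), Egr1 (2979.1), Egr2 (42.1), Fos (164.8), Junb (1943.8) and Npas4 (400.7), for the striatal genes Drd1 (1322.1) and Drd2 (1643.4), and for Gdf10 (121.8), Grin2c (844.6) and Grm4 (1212.8). It was the highest for Arhgef33 (151.0) and Ifi27 (1043.1).

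Cortex 5 was high for Npy (2693.8), Sst (8494.3) and Ppp1r1b (31335.9) and low for Dcx (745.5). Cortex 1 was low for Cbln3 (14.5) and Gabra6 (2.2). Cortex 3 was low for C1ql2 (25) and high for Ttr (7156.1), cerebellum 4 was low for Ttr (659.2), and cerebellum 5 was high for Il16 (5345.8).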

How the results depend on the processing

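For the 183 named genes, 3151 of 3288 values under an alternative kept their direction and side of the threshold, and 1479 of 1548 list counts stayed within 1.5 times. Without the replicate block 9773 genes were called, against 10485 in the paired fit, and Bdnf, Fabp7, Fos, Irf7, Slc32a1 and Yy1 lost their call. Other settings gave 9412 to 11378 calls. With equal totals 6865 genes were higher and 4356 lower. Leaving out 1 animal at a time gave 9565 to 10476 calls, with 3400 to 3818 higher and 6165 to 6658 lower genes. It gave 1046 to 1122 higher and 2582 to 2702 lower genes at 2-fold, and 1047 to 1451 genes within 0.25 of 0. In cKO mice it gave 6809 to 9362 calls, the most without number 4. The depth difference ran from -0.38 to 0.080, positive without animal 3, 4 or 5 (0.080, 0.056 and 0.035; exact sign-flip permutation p = 0.0625 to 1.0 over the animals left out, smallest possible 0.0625). The sign changed in 15 genes, and the cause was not tested. With equal totals the log2 folds were Eef2 0.19, Flt1 0.070, Gja1 0.16, Mog 0.097, Rgs5 0.27, Slc32a1 0.022 and Tph2 0.18, and with median-of-ratios factors Eef2 0.059, Gja1 0.029, Rgs5 0.14 and Tph2 0.050. Leaving out 1 animal gave -0.020 to 0.19 for Cldn5, -0.055 to 0.24 for Gria1, -0.046 to 0.18 for Ifi27, -0.069 to 0.066 for Mbp, -0.050 to 0.075 for Pkm, -0.17 to 0.066 for Rgs5 and -0.31 to 0.23 for Tph2. In animals 1 to 4 they were Cldn5 -0.034, Col1a1 -0.036 and Mbp -0.038, with reads as a covariate Gria1 -0.019, and with quality weights Gja1 0.035, Mbp -0.011, Pkm -0.028, Rgs5 0.018 and Tph2 0.17. With a random animal effect and cerebellum 7 added they were Ddx3y -0.67, Rgs5 0.0053 and Xist 0.47. Depth limits the lowest values, where a few reads set the fold.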

Other observations

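Genes of neuron groups with few cells in either dissection added some contrasts. Chat, the acetylcholine-synthesis enzyme gene, had 0 to 2.1 (median 0.9) normalised reads in cerebellum and 192 to 335 (median 241) in cortex (log2 fold -7.16, SE 0.30, adjusted p = 1.60e-08). The groups did not overlap, and cerebellar values were at or near 0. Tph2, the enzyme of serotonin neurons, had 11.4 to 27.9 (median 19.2) in cerebellum and 12.4 to 38.5 (median 17.0) in cortex and did not pass the test (log2 fold -0.09, SE 0.39, adjusted p = 0.849). Th, the dopamine-synthesis enzyme gene, had 268 to 545 in cerebella 1 to 5, 3837 in cerebellum 6 and 124 to 296 in cortex (log2 fold 1.61, adjusted p = 0.0554; 0.94, adjusted p = 2.79e-04, without animal 6). Of 8 monoamine and cholinergic genes tested, 4 were 2-fold or more lower and 0 higher.

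Of 7 hippocampal markers, 2 were 2-fold or more higher in cerebellum and 4 lower (median log2 fold -1.68). Prox1, a homeobox factor of dentate granule cells, had 735 to 1054 (median 945) in cerebellum and 308 to 524 (median 379) in cortex (log2 fold 1.22, SE 0.11, adjusted p = 3.17e-06), with all cerebella above all cortices. Dcx (doublecortin), a microtubule protein gene of young neurons, had 108 to 125 (median 110.2) against 746 to 1212 (median 1106) (log2 fold -3.21, SE 0.10, adjusted p = 1.66e-09). Mki67, a gene of dividing cells, had 5.0 to 151 (median 17.2) against 53.4 to 155 (median 97.4) (log2 fold -2.25, adjusted p = 0.0212; -2.99 without animal 6), and its highest cerebellar value was that of number 6. Of 12 proliferation and neuroblast genes, 6 were 2-fold or more lower and 0 higher, and 1 higher without animal 6. Of 6 glycine receptor and transporter genes, 2 were higher and 2 lower, and of 4 blood cell genes none passed 2-fold in either direction (median 0.44).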
